A study of Homo sapiens with 12 samples.

Results

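The expressed long intergenic noncoding RNAs (lincRNAs) of the human lens epithelial cell line HLE-B3 were examined. A lincRNA is a long transcript without a protein reading frame that is annotated away from coding genes. A gene was included when its annotated class in the deposited count table was lincRNA and its mean FPKM (fragments per kilobase of gene length, scaled to the depth of the library) over 3 replicates was above 1 in at least 1 of 4 groups. This held for 473 of 7629 lincRNA genes, within 58735 genes of all classes. HLE-B3 is an immortalised line, and 2 versions of it were grown in the same medium. One was wild type (WT) and the other carried a CRISPR/Cas9 knockout of ATG7 (ATG7 KO), which encodes an enzyme required to build autophagosomes. Each was harvested untreated (0 h) or after 12 h with 200 μM H2O2, with 3 replicates per group and 12 libraries in all. The untreated cells were taken at 0 h, so the effect of H2O2 and that of 12 h in culture cannot be told apart. The knockout cells were grown from picked colonies, and the labels do not say how many colonies the libraries represent, so a knockout effect and a difference between clones cannot be told apart. In bulk RNA, fewer cells of a kind and less RNA per cell cannot be told apart.

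LincRNAs are mostly transcribed by RNA polymerase II, capped, spliced and polyadenylated like messenger RNAs. Some act in the nucleus as scaffolds, such as NEAT1 in the paraspeckle, some bind proteins in the cytoplasm, such as NORAD with PUM2, and others serve mainly as precursors whose introns or exons are cut into small nucleolar RNAs (snoRNAs) or microRNAs. Several are known targets of p53, the transcription factor activated by DNA damage.

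ATG7 mRNA was not lower in the libraries labelled ATG7 KO. Untreated, its mean ± SD over 3 replicates was 2.55 ± 0.31 FPKM in WT and 3.55 ± 0.20 in ATG7 KO cells, and 1.96 ± 0.04 and 2.19 ± 0.14 after H2O2. The log2 difference was 0.47 in untreated cells (adjusted p = 0.0348) and 0.15 after H2O2 (adjusted p = 0.135) by edgeR's quasi-likelihood test, and a frameshift need not lower mRNA, so these counts do not check the label. Libraries held 15602183 to 17659496 counted reads. ATG7 KO untreated replicate 1 correlated less with its group (mean r = 0.974 over 16856 genes) than the other libraries of that group (0.983) or any library of the other groups (0.991 to 0.992), and results that rest on it are given with and without it. Of 13 lens epithelial marker genes, 3 or 4 had a group mean above 1 FPKM, CDH2 and GJA1 the highest, while SOX2 had no reads and CRYAA and FOXE3 stayed under 0.1 FPKM, so the lens identity rests on few of them. The summed level of 3 leukocyte markers was at most 0.185 FPKM and that of 3 endothelial markers at most 0.566 FPKM in any library. The sum of 5 retinal pigment epithelium markers was 1.59 to 1.78 FPKM in untreated WT cells, 0.965 to 1.01 in WT cells with H2O2, 1.14 to 1.54 in untreated ATG7 KO cells and 1.31 to 1.55 in ATG7 KO cells with H2O2, and the 2 of them tested were both higher in ATG7 KO than in WT cells with H2O2 at an adjusted p under 0.01 (median log2 difference 0.77). The sum of 4 fibroblast markers, nearly all of it from COL1A1, moved with the groups: 623 to 655 FPKM in untreated WT cells, 269.7 to 287 in WT cells with H2O2, 348 to 504 in untreated ATG7 KO cells and 244 to 253 in ATG7 KO cells with H2O2, with DCN near 0 throughout. The part of either set in the results below was not tested.

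Most of the lincRNAs were scarce. Their median length was 1052 bases and their median level over 12 libraries was 1.25 FPKM, carried by a median of 26.9 reads per library. The mean count was under 10 reads for 114 of them and over 100 for 93, and 14 exceeded 10 FPKM on average. Clone-based names without a symbol belonged to 305 of the 473, and 80 had LINC names. The mean was above 1 FPKM in all 4 groups for 174, in 3 for 71, in 2 for 75 and in a single group for 153. It was above 1 for 287 in untreated WT cells, 336 in WT cells with H2O2, 313 in untreated ATG7 KO cells and 276 in ATG7 KO cells with H2O2. WT cells with H2O2 alone accounted for 67 of the 153, against 25, 29 and 32 for untreated WT, untreated ATG7 KO and H2O2-treated ATG7 KO cells. These counts follow from the rule. At its edge, AC005840.2 lay just inside with a highest group mean of 1.00105 FPKM and LINC02101 just outside with 0.9977.

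Taken as a class, the 473 lincRNAs held 0.357 ± 0.0339% of counted reads in untreated WT cells, 0.321 ± 0.00791% in WT cells with H2O2, 0.302 ± 0.0105% in untreated ATG7 KO cells and 0.311 ± 0.00567% in ATG7 KO cells with H2O2 (SD, n = 3). The share fell by 0.0359 percentage points with H2O2 in WT cells and was lower by 0.0546 points in untreated ATG7 KO than in untreated WT cells (both p = 0.1, exact permutation test, two-sided). That is the smallest p that 3 against 3 libraries allow, so neither difference could reach 0.05. With H2O2 the lines differed by -0.0102 points (exact permutation p = 0.2), and H2O2 moved the share by 0.0086 points in ATG7 KO cells (exact permutation p = 0.4). The sign of the H2O2 difference depended on the measure in both lines: as a share of summed FPKM it was 0.0363 points in WT cells, and without NORAD it was -0.0073 points in ATG7 KO cells.

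NORAD, MALAT1 and NEAT1 held a large part of these reads. NORAD, a cytoplasmic RNA that binds the protein PUM2, had 15.0 to 24.9% of the lincRNA reads in a library, MALAT1 4.35 to 20.5% and NEAT1 6.53 to 14.5%. MALAT1 is an abundant RNA of nuclear speckles, and NEAT1 is the scaffold of paraspeckles. Both lie on chromosome 11, next to each other.

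**Figure D1:**
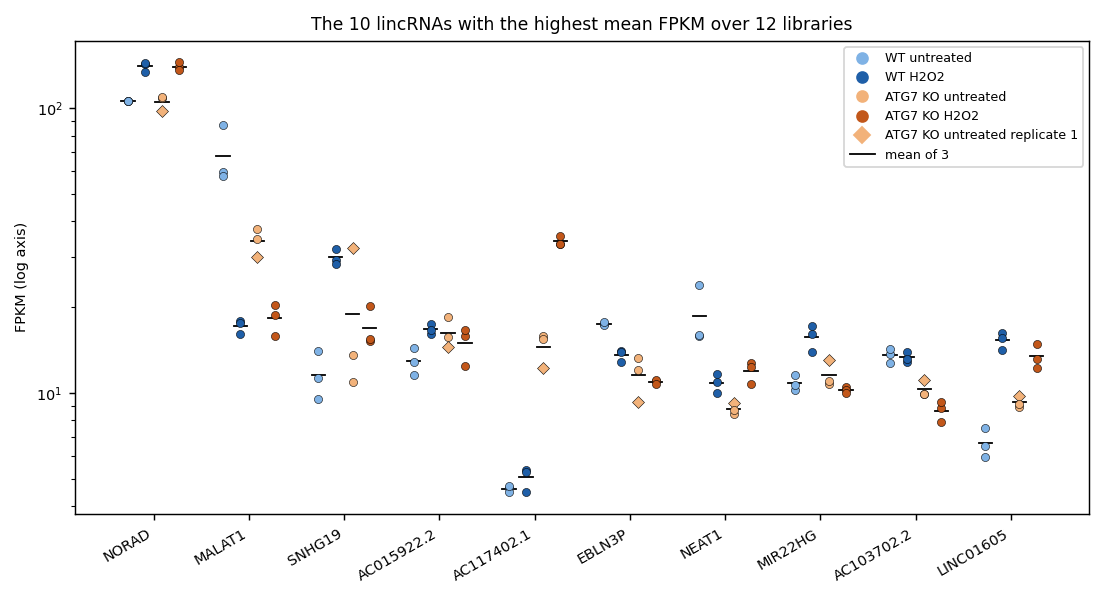
FPKM on a log axis of the 10 lincRNAs with the highest mean level over 12 libraries, with 1 point per library, bars at the group means of 3, and a diamond for ATG7 KO untreated replicate 1. NORAD stands above the others in every library, and MALAT1 is highest in untreated WT cells, where its libraries lie between 57.7 and 87.1 FPKM.

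NORAD (ENSG00000260032, chromosome 20, 36045622 to 36050960, minus strand, GRCh38) was higher after H2O2. Its FPKM was 106, 106 and 106 in untreated WT cells and 143, 144 and 134 after H2O2. The ATG7 KO values were 97.9, 109 and 109.8 untreated and 139, 145 and 136 with H2O2. All 6 treated libraries lay above all 6 untreated libraries, and the WT and ATG7 KO ranges overlapped with H2O2. In WT cells the log2 fold change was 0.40 ± 0.04 (SE; adjusted p = 3.04e-12, edgeR quasi-likelihood). In ATG7 KO cells it was 0.40 ± 0.10 (adjusted p = 0.016), and 0.34 without ATG7 KO untreated replicate 1 (adjusted p = 2.22e-23). Between the lines it was -0.01 with H2O2 (adjusted p = 0.819) and -0.01 untreated (adjusted p = 0.972).

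The NORAD transcript of 5339 bases held 15 copies of the PUM2-binding word TGTANATA on its sense strand. HCG11 (chromosome 6, 26521709 to 26527404, plus strand) held 16 copies in 5696 bases, and aligned to NORAD at 90.5% identity over NORAD bases 1 to 4586 and at 89.3% over bases 4570 to 5338. At 11 of the 15 NORAD sites HCG11 had the same word in the aligned position. The sites below show a shared site with identical flanks, a shared site with changed flanks, and a site whose word HCG11 lacked. They are read from GENCODE transcripts on GRCh38, positions are counted from the transcript start, and capitals mark the word.

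NORAD 761 to 768: ggaaggcctgTGTATATAatatgaaaaa
HCG11 from 760: ggaaggcctgTGTATATAatatgaaaaa
NORAD 2972 to 2979: aaccctactgTGTATATAgcggacaaac
HCG11 from 2965: aacagtgctaTGTATATAgtggacacac
NORAD 1140 to 1147: ctcactactgTGTATATAgttgacaatg

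Of the 473 lincRNAs, 51 (10.8%) held at least 1 copy of the word in their transcript and 4 held 3 or more, among them NEAT1 with 6 and LINC00941 with 3. Because NORAD and HCG11 are this alike, reads may be shared between them and the level of HCG11 is uncertain. HCG11, named here after its values were seen, was at 3.30, 2.72 and 2.64 FPKM in untreated WT cells, 2.48, 2.83 and 2.40 in WT cells with H2O2, 4.49, 4.01 and 4.12 in untreated ATG7 KO cells, and 4.14, 3.67 and 3.73 in ATG7 KO cells with H2O2. All 6 ATG7 KO libraries were above all 6 WT libraries. With H2O2 the difference was 0.58 ± 0.09 (log2; adjusted p = 3.16e-06), under the fold threshold. PUM2 mRNA was 0.24 higher on the log2 scale in ATG7 KO than in WT cells with H2O2 (adjusted p = 3.18e-06) and fell by 0.21 with H2O2 in WT cells.

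MALAT1 (chromosome 11, 65497688 to 65506516, plus strand) fell with H2O2 in both lines. In untreated WT cells it was at 59.8, 87.1 and 57.7 FPKM and with H2O2 at 17.9, 16.1 and 17.6. The ATG7 KO libraries were at 30.04, 37.8 and 34.8 untreated and at 20.3, 15.8 and 18.7 with H2O2. The treated libraries of the lines overlapped, and all untreated libraries lay above them. The log2 fold change was -1.99 ± 0.21 in WT cells (adjusted p = 0.000984), against -0.91 ± 0.14 in the ATG7 KO line (adjusted p = 0.00211), the latter smaller than the fold threshold, and its adjusted p rose above 0.01 without ATG7 KO H2O2 replicate 2 or replicate 3 (highest adjusted p = 0.0151). The 2 responses differed by 1.09 ± 0.21 (interaction, adjusted p = 0.00309), and by 1.01 without ATG7 KO untreated replicate 1 (adjusted p = 0.0178). Leaving out ATG7 KO H2O2 replicate 1 or WT H2O2 replicate 2 also took the adjusted p of the interaction above 0.01. In untreated cells ATG7 KO was lower by 1.0 on the log2 scale than WT at an adjusted p of 0.0125.

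NEAT1 (chromosome 11, 65422774 to 65445540, plus strand) was at 15.8, 24.0 and 16.0 FPKM in untreated WT cells and 10.9, 10.0 and 11.7 with H2O2. Libraries of ATG7 KO cells stood at 9.19, 8.43 and 8.70 untreated and 12.8, 10.8 and 12.3 with H2O2. Untreated WT libraries were highest and untreated ATG7 KO libraries lowest, with no overlap between the lines when untreated. That difference was -1.09 ± 0.18 (log2; adjusted p = 0.00733), and leaving out any of its 6 libraries took the adjusted p above 0.01 (highest adjusted p = 0.0477). The changes with H2O2 were -0.78 in WT (adjusted p = 0.0291) and 0.44 in ATG7 KO cells (adjusted p = 0.0115), and they differed by 1.22 ± 0.20 (interaction, adjusted p = 0.00106, at most 0.00566 with any library left out). NEAT1 is 22767 bases long, and after a correction for gene length the interaction was 0.54 (adjusted p = 0.183) and the untreated difference -0.72 (adjusted p = 0.089). Of 10 paraspeckle protein genes, 5 passed an adjusted p of 0.01 upward with H2O2 in WT cells and 2 in ATG7 KO cells, 5 without ATG7 KO untreated replicate 1. The adjusted p alone was under 0.01 upward for 30.9% of all genes tested in WT and 13.6% in ATG7 KO cells, and downward for 30.1% and 12.4%. The median log2 fold change of the 10 genes was 0.18 in WT and 0.10 in ATG7 KO cells, with 1 gene called higher in each line. Between the lines with H2O2, 1 passed the adjusted p upward and 3 downward, where 27.7% and 27.9% of all genes did. RBM14, a structural protein of the paraspeckle, rose by 1.49 in WT and 2.03 in ATG7 KO cells (log2).

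A gene was called changed when edgeR's quasi-likelihood test gave an adjusted p under 0.01 over all genes, the log2 fold change was beyond 1 and the mean was above 1 FPKM in at least 1 group compared. H2O2 against untreated called 114 lincRNAs in WT cells, 77 higher and 37 lower, of 378 tested, where 12.5% of all genes tested were called, 7.3% higher and 5.24% lower. The same contrast in the ATG7 KO line called 69, 36 higher and 33 lower, of 362 tested, against 11.2% of all genes (6.09% higher and 5.11% lower). Without ATG7 KO untreated replicate 1 the latter count was 93 (49 higher, 44 lower), and 67 of the 69 were among them. It was 32, 27 and 32 without ATG7 KO H2O2 replicate 1, 2 or 3, and 45 without ATG7 KO untreated replicate 2 or 3. With all libraries, 30.2% of the lincRNAs tested were called in WT and 19.1% in ATG7 KO cells. Of genes tested with a mean above 1 FPKM in at least 1 group, 15.3% and 13.3% were. After a correction for gene length, 65 lincRNAs were higher and 44 lower in WT cells, and 42 and 30 in ATG7 KO cells. The rule itself favours genes that are high in a single group. Among the 174 lincRNAs above 1 FPKM in all 4 groups, 37 were called in WT cells, against 11% of all genes so defined, and 19 in ATG7 KO cells, against 10.5%, so the ATG7 KO share of 10.9% was near the background.

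Called in the same direction in both lines were 18 lincRNAs higher and 7 lower, which is 21.9% of the WT calls and 36.2% of the ATG7 KO calls. Only LINC01215 was called in opposite directions. Across 330 lincRNAs tested in both lines the log2 fold changes had a Pearson r of 0.633, as a description over genes that share their libraries within each line. Neither the overlap nor r was computed over all genes, so neither can be called particular to lincRNAs.

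**Figure D2:**
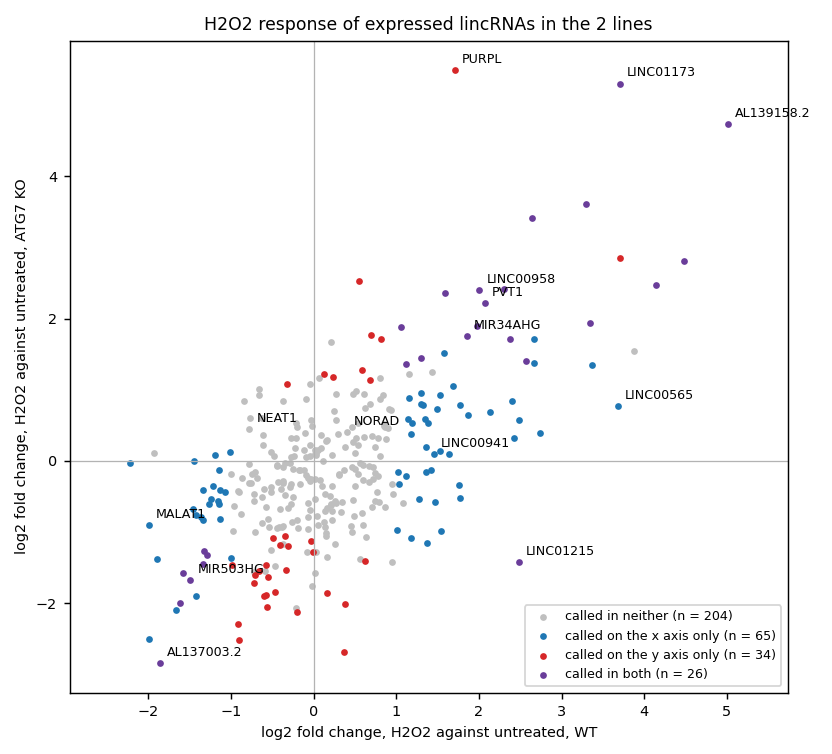
Log2 fold change with H2O2 in WT cells (x axis) and in ATG7 KO cells (y axis) for 329 lincRNAs, coloured by the line in which they were called. Of the points, 65 were called in WT only, 34 in ATG7 KO only and 26 in both. LINC01215 lies alone at the lower right.

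Among the lincRNAs that rose in both lines were PVT1, MIR34AHG and LINC00958. PVT1 (chromosome 8, 127794533 to 128101253, plus strand), a growth-linked gene beside the MYC oncogene that is also a p53 target, was at 1.40, 1.13 and 0.933 FPKM in untreated WT cells and 4.66, 5.42 and 4.53 with H2O2. ATG7 KO cells were at 1.43, 1.08 and 1.21 untreated and 6.19, 5.42 and 5.81 with H2O2. Treated and untreated libraries did not overlap in either line. The log2 fold changes were 2.07 ± 0.12 (adjusted p = 1.62e-20) and 2.22 ± 0.13 (adjusted p = 4.9e-05), and their difference of 0.15 ± 0.21 did not pass the test (adjusted p = 0.602). MYC, 53099 bases away, rose by 1.11 ± 0.05 in WT cells, where its change in ATG7 KO cells was 0.23 ± 0.10 (adjusted p = 0.114), and these differed by -0.88 ± 0.11 (interaction, adjusted p = 0.000274).

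MIR34AHG (chromosome 1, 9148011 to 9198906, minus strand), the host of the p53-induced microRNA miR-34a, was at 0.884, 0.975 and 0.699 FPKM in untreated WT cells and 3.16, 3.11 and 2.99 with H2O2. In ATG7 KO cells it was at 1.11, 1.04 and 0.875 untreated and 3.50, 3.29 and 3.44 with H2O2. The treated libraries were all above the untreated ones. It rose by 1.85 ± 0.11 in WT cells (adjusted p = 3.21e-20), against 1.75 ± 0.12 in the ATG7 KO line (adjusted p = 6.51e-05). LINC00958, named here after its values were seen, rose by 2.0 ± 0.08 in WT cells (from a mean of 4.32 to 17.4 FPKM) and by 2.40 ± 0.20 in ATG7 KO cells (from 3.09 to 16.4 FPKM). AL137003.2 fell in both lines, by 1.86 and 2.84 on the log2 scale.

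The p53-linked list of long noncoding RNAs holds 12 genes found in the table, 6 of them lincRNAs examined here. With H2O2, 10 of 11 tested genes passed an adjusted p of 0.01 upward in WT cells and 5 of 10 in ATG7 KO cells, 9 of 10 without ATG7 KO untreated replicate 1, beside 30.9% and 13.6% of all genes. The median log2 fold change of the list was 1.60 in WT and 1.09 in ATG7 KO cells, beside -0.01 and -0.03 over all genes tested. PURPL (chromosome 5, 27472292 to 27496401, plus strand), a p53 target that lowers p53 levels, differed between the lines. It was at 0.196, 0.330 and 0.128 FPKM in untreated WT cells and 0.604, 0.985 and 0.595 with H2O2. The ATG7 KO libraries were at 0.023, 0.0425 and 0.0409 untreated and 1.95, 1.32 and 1.94 with H2O2. The lines did not overlap under either condition, and ATG7 KO cells held both the lowest and the highest values. It rose by 5.49 ± 0.36 in ATG7 KO cells (adjusted p = 6.35e-05) and by 1.71 ± 0.37 in WT cells (adjusted p = 6.71e-05, with no group mean above 1 FPKM). The responses differed by 3.78 ± 0.64 (interaction, adjusted p = 0.00128). PURPL was included through treated ATG7 KO cells alone. Its high level there, and the differences that rest on it, follow in part from the inclusion rule. Its rise in ATG7 KO cells rests on 5 reads in the untreated group and 234 in the treated group. TP53TG1, a p53-regulated RNA, was higher with H2O2 by 0.78 in WT cells (adjusted p = 0.0035), above 0.01 without any of 4 libraries: WT H2O2 replicates 1 and 2 and WT untreated replicates 1 and 2 (highest adjusted p = 0.039), after a correction for gene length (0.0311) and with all 12 libraries in 1 fit (0.0173).

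Most tested host genes of snoRNAs rose with H2O2 in WT cells. These genes carry snoRNAs in their introns, and their spliced exons are known to be broken down by nonsense-mediated decay when translated. Of the 24 tested of the list, 6 of them lincRNAs examined here, 16 passed an adjusted p of 0.01 upward and 1 downward with H2O2 in WT cells (15 to 16 upward with any library left out), where 30.9% and 30.1% of all genes did. In ATG7 KO cells 2 passed upward and none downward, or 7 and 3 without ATG7 KO untreated replicate 1, and 7 of the 24 had an unadjusted p under 0.05 while DESeq2 called 2 upward and 1 downward. With H2O2, 17 were lower in ATG7 KO than in WT cells and 1 was higher (16 to 18 lower with any library left out), where 27.9% of all genes were lower and 27.7% higher at that adjusted p. The median log2 difference there was -0.64, beside -0.00 over all genes tested. In untreated cells none passed in either direction (4.42% of all genes passed upward and 3.28% downward), 5 had an unadjusted p under 0.05 and DESeq2 called 2, and without ATG7 KO untreated replicate 1 4 were higher and 5 lower. The interaction passed for 5 genes, all downward, where 7.02% of all genes passed upward and 7.01% downward. Without that library it passed for 14, all downward, and the share over all genes was not counted for that fit.

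SNHG15 (chromosome 7, 44983023 to 44986961, minus strand) was at 3.60, 3.23 and 3.54 FPKM in untreated WT cells and 12.1, 12.7 and 10.7 with H2O2. Libraries of ATG7 KO cells stood at 6.401, 3.31 and 2.92 untreated and 7.29, 7.53 and 6.86 with H2O2, with replicate 1 the high untreated library. The treated lines did not overlap. It rose by 1.77 ± 0.08 in WT cells (adjusted p = 1.35e-23) and was 0.72 ± 0.07 lower in ATG7 KO than in WT cells with H2O2 on the log2 scale (adjusted p = 2.17e-10). In ATG7 KO cells the change was 0.78 (adjusted p = 0.0593), and 1.20 without replicate 1 of the untreated cells (adjusted p = 8.9e-27).

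SNHG19 (chromosome 16, 2154797 to 2155358, minus strand) was at 11.2, 13.99 and 9.55 FPKM in untreated WT cells and 29.3, 28.3 and 32.1 with H2O2. ATG7 KO cells were at 32.3, 13.6 and 10.9 untreated and 15.2, 20.1 and 15.5 with H2O2. Again replicate 1 was the high untreated ATG7 KO library, and the treated lines did not overlap. It rose by 1.36 ± 0.15 in WT cells (adjusted p = 6.91e-11), and the lines differed by -0.83 ± 0.14 with H2O2 (adjusted p = 3.41e-06). The interaction was -1.51 (adjusted p = 0.0245), and -0.89 without the high library (adjusted p = 0.00174).

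SNHG8 rose by 1.64 in WT cells (adjusted p = 5.59e-08) and was lower by 1.11 in ATG7 KO than in WT cells with H2O2 (adjusted p = 9.54e-05). EPB41L4A-AS1 was at 2.97, 2.58 and 2.85 FPKM in untreated WT cells, 5.52, 5.90 and 4.95 in WT cells with H2O2, 8.30, 4.06 and 4.31 in untreated ATG7 KO cells and 3.89, 4.24 and 3.96 in ATG7 KO cells with H2O2. Its responses differed by -1.42 ± 0.31 (interaction, adjusted p = 0.00524, and 5.15e-08 without replicate 1 of untreated ATG7 KO cells). Leaving out any 1 of 8 other libraries (WT untreated replicates 1 to 3, WT H2O2 replicates 1 and 2 and ATG7 KO H2O2 replicates 1 to 3) took it above 0.01 (highest adjusted p = 0.0173). SNHG9, whose start lies 99 bases from that of the ribosomal protein gene RPS2 on the other strand, was 1.45 lower in ATG7 KO cells with H2O2 (adjusted p = 0.000922), but above 0.01 without ATG7 KO H2O2 replicate 3 (adjusted p = 0.011). Both line differences, of SNHG8 and SNHG9, had adjusted p values above 0.01 when all 12 libraries shared 1 fit (0.0356 and 0.037), as did those of SNHG15 (0.0144) and SNHG19 (0.0474). SNHG4 stood between 2.10 and 3.05 FPKM in all 12 libraries. Of 10 genes for factors of nonsense-mediated decay, 8 were higher and 1 lower in ATG7 KO than in WT cells with H2O2 at an adjusted p of 0.01, 6 and 1 after a correction for gene length, with a median of 0.25, and none was called with the fold threshold. Of all genes tested, 27.7% were higher and 27.9% lower at that adjusted p. The part of these genes in the levels of the host RNAs was not tested.

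**Figure D3:**
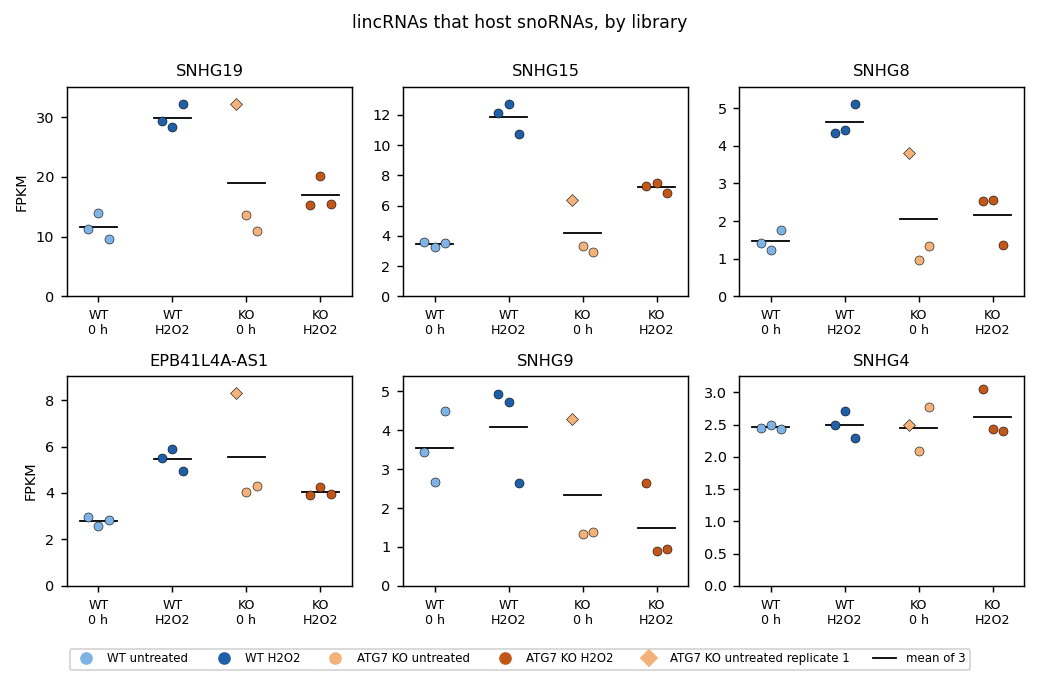
FPKM of the 6 snoRNA host lincRNAs in each library, with 1 panel per gene, bars at the group means of 3, and a diamond for ATG7 KO untreated replicate 1. In SNHG19, SNHG15, SNHG8 and EPB41L4A-AS1 the WT libraries with H2O2 lie above those of untreated WT cells, and the diamond is the highest untreated ATG7 KO library.

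In the microRNA reference used, 21 hairpins lay wholly within 14 of the lincRNAs and on the same strand. A selection of their mature sequences, 1 arm of a hairpin each and not every hairpin, is given 5′ to 3′ from RefSeq (GRCh38.p14), with the seed, bases 2 to 8, in capitals and grouped by shared seed. The search found no hairpin within MIR22HG or MIR155HG, which are on the list of microRNA host genes, so its count may be incomplete. The mature microRNAs themselves were not measured in these libraries.

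hsa-miR-221-3p (MIR222HG): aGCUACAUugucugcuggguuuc
hsa-miR-222-3p (MIR222HG): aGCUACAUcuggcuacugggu
hsa-let-7a-5p (AL158152.2): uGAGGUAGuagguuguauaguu
hsa-let-7f-5p (AL158152.2): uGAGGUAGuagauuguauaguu
hsa-let-7d-5p (AL158152.2): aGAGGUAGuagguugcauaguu
hsa-miR-30a-5p (LINC00472): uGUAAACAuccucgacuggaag
hsa-miR-30c-5p (LINC00472): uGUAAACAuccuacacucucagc
hsa-miR-4435 (CYTOR and MIR4435-2HG): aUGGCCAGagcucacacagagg
hsa-miR-146a-5p (MIR3142HG): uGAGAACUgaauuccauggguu
hsa-miR-34a-5p (MIR34AHG): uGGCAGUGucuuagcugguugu
hsa-miR-503-5p (MIR503HG): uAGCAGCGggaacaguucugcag
hsa-miR-210-3p (MIR210HG): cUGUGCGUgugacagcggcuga

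MIR3142HG (chromosome 5, 160438594 to 160487426, plus strand), named here after its values were seen, carries miR-146a, a microRNA induced by NF-κB that dampens innate immune signalling. It was at 5.09, 5.49 and 4.45 FPKM in untreated WT cells and 3.60, 3.58 and 2.98 with H2O2. In ATG7 KO cells it was at 25.5, 21.4 and 20.5 untreated and 8.43, 7.79 and 8.22 with H2O2. Every ATG7 KO library was above every WT library. It was higher in ATG7 KO cells by 2.16 ± 0.13 untreated (log2; adjusted p = 0.000189) and by 1.26 ± 0.11 with H2O2 (adjusted p = 8.89e-12). With H2O2 it fell by 1.47 in ATG7 KO cells (adjusted p = 0.000111) and by 0.57 in WT cells (adjusted p = 8.46e-05).

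The other microRNA hosts moved separately. MIR503HG, the host of miR-503, which targets cell cycle mRNAs, fell from 3.83, 4.37 and 3.19 FPKM to 1.19, 1.63 and 1.25 in WT cells (-1.5 ± 0.20, adjusted p = 3.82e-09). ATG7 KO cells went from 5.56, 3.31 and 3.51 to 1.08, 1.41 and 1.37 (-1.68 ± 0.25, adjusted p = 0.00213, and up to 0.0147 without 1 of the 3 treated libraries of that line). MIR210HG, the host of the hypoxia-induced miR-210, fell by 1.16 in WT cells (adjusted p = 6.46e-05, and 0.0127 with all 12 libraries in 1 fit), and LINC00472, the host of miR-30a and miR-30c named here after its values were seen, by 1.15 (adjusted p = 1.2e-07). MIR222HG, the host of the pair with the first seed above, rose by 0.53 ± 0.09 in WT cells (adjusted p = 8.48e-07, and 0.014 with all 12 libraries in 1 fit), under the fold threshold. AL158152.2, named here for the 3 let-7 hairpins it spans and not by the naming rule, differed between the lines. It was lower by 2.04 ± 0.51 in ATG7 KO than in WT cells with H2O2 (adjusted p = 0.000836), on a mean of 8.42 reads per library. Its value was not checked with libraries left out. CYTOR and MIR4435-2HG, related growth-linked RNAs that hold the same mature microRNA and so may share reads, had log2 fold changes of 0.48 (adjusted p = 6.91e-08) and -0.35 (adjusted p = 1.97e-06) with H2O2 in WT cells. After a correction for gene length these were 0.83 (adjusted p = 2.08e-14) and -0.05 (adjusted p = 0.442). Of the 17 tested microRNA host genes on the list, 4 passed an adjusted p of 0.01 upward and 7 downward in WT cells with H2O2, and 1 and 2 in ATG7 KO cells (4 and 5 without ATG7 KO untreated replicate 1), beside 30.9% and 30.1% of all genes in WT and 13.6% and 12.4% in ATG7 KO cells.

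MIR22HG, a host gene linked to chemical stress, was at 10.2, 10.6 and 11.6 FPKM in untreated WT cells, 16.1, 17.1 and 13.9 in WT cells with H2O2, 13.0, 10.7 and 10.998 in untreated ATG7 KO cells and 10.4, 10.2 and 10.0 in ATG7 KO cells with H2O2. The treated WT libraries were above all others. It rose by 0.53 in WT cells (adjusted p = 1.04e-08), and the lines differed by -0.62 ± 0.07 with H2O2 (adjusted p = 3.44e-09). Of the 8 tested genes on the stress-linked list, 3 passed upward and 3 downward in WT cells with H2O2, and 1 passed, downward, in ATG7 KO cells. These directions were mixed, and 30.9% of all genes passed upward and 30.1% downward in WT cells.

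Between the lines, 105 lincRNAs were called with H2O2, 37 higher and 68 lower in ATG7 KO cells, of 370 tested, where 7.46% of all genes tested were called, 3.03% higher and 4.43% lower. In untreated cells 28 were called, 22 higher and 6 lower, of 359 tested, against 3.5% of all genes (2.27% higher and 1.23% lower), and 45 (31 higher, 14 lower) without ATG7 KO untreated replicate 1, 27 of the 28 among them. Without WT untreated replicate 1, 2 or 3 it was 9, 10 or 9, and without ATG7 KO untreated replicate 3 it was 16. With all libraries, 28.4% of the lincRNAs tested were called with H2O2 and 7.8% untreated. Of genes tested with a mean above 1 FPKM in at least 1 group, 9.07% and 4.16% were. After a correction for gene length, 41 lincRNAs were higher and 52 lower with H2O2, and 21 and 7 untreated. Among the 174 lincRNAs above 1 FPKM in all 4 groups, 27 were called with H2O2 (10 higher, 17 lower), or 15.5%, beside 4.89% of all genes so defined. Both conditions called 11 of the lincRNAs higher and 2 lower in ATG7 KO cells, which is 12.4% of the calls with H2O2 and 46.4% of those in untreated cells. Over 318 lincRNAs tested in both, the log2 differences had a Pearson r of 0.455, as a description. Here too the overlap and r were not computed over all genes.

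**Figure D4:**
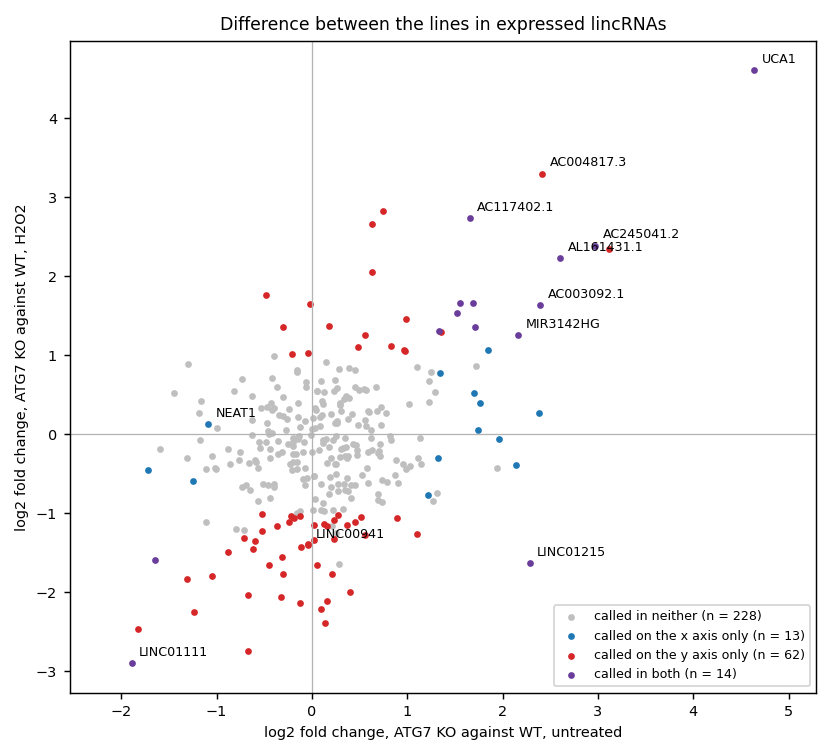
Log2 difference of ATG7 KO from WT cells when untreated (x axis) and with H2O2 (y axis) for 317 lincRNAs, coloured by the condition in which they were called. Of the points, 13 were called in untreated cells only, 62 with H2O2 only and 14 in both. UCA1 stands at the upper right in both, and LINC01215 is the single point called in opposite directions.

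UCA1 (chromosome 19, 15828206 to 15836326, plus strand), an RNA first described in bladder carcinoma, was low in WT and high in ATG7 KO cells. It was at 0.111, 0.157 and 0.0542 FPKM in untreated WT cells and 0.114, 0.0782 and 0.210 with H2O2. The ATG7 KO libraries were at 2.56, 2.97 and 2.65 untreated and 2.97, 3.09 and 4.07 with H2O2. All ATG7 KO libraries lay far above all WT libraries. The log2 difference was 4.64 ± 0.29 untreated (adjusted p = 0.000189) and 4.61 ± 0.22 with H2O2 (adjusted p = 1.14e-17).

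AC117402.1 (chromosome 3, 110888384 to 110893476, minus strand), an uncharacterised lincRNA, was at 4.63, 4.47 and 4.71 FPKM in untreated WT cells and 5.36, 4.48 and 5.29 with H2O2. Libraries of ATG7 KO cells stood at 12.2, 15.9 and 15.5 untreated and 33.3, 35.6 and 33.3 with H2O2. The lines did not overlap, and only in ATG7 KO cells were treated libraries apart from untreated ones. It was higher in ATG7 KO cells by 1.66 ± 0.14 untreated (adjusted p = 0.000527) and 2.74 ± 0.09 with H2O2 (adjusted p = 2.67e-22). It rose with H2O2 by 1.22 ± 0.13 in ATG7 KO cells (adjusted p = 0.000414), and the responses differed by 1.09 ± 0.16 (interaction, adjusted p = 0.000625). NECTIN3, the nearest coding gene 176595 bases away, which encodes a cell adhesion protein, was 0.62 higher in ATG7 KO cells with H2O2 (adjusted p = 1.57e-11).

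Other lincRNAs higher in ATG7 KO cells under both conditions were AL161431.1 (2.60 untreated and 2.24 with H2O2), AC003092.1 (2.40 and 1.64) and AC245041.2 (2.97 and 2.39), the last of which overlaps the coding gene NPY4R2, so its reads are uncertain. AC004817.3 was higher with H2O2 by 3.30 ± 0.23 (adjusted p = 6.28e-14). AC034223.1 and AC034223.2, higher with H2O2 by 2.42 and 2.83, overlap each other on opposite strands, and their reads cannot be told apart.

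LINC01111 (chromosome 8, 76406654 to 76524356, plus strand) was the more abundant of the 2 lincRNAs called lower in ATG7 KO cells under both conditions. It was at 10.2, 12.3 and 11.7 FPKM in untreated WT cells and 7.20, 6.91 and 6.68 with H2O2. ATG7 KO cells were at 3.28, 2.73 and 3.22 untreated and 1.19, 0.769 and 0.832 with H2O2. The 4 groups did not overlap. The log2 differences between the lines were -1.89 ± 0.14 (adjusted p = 0.000289) and -2.89 ± 0.17 (adjusted p = 1.54e-15). LINC02593 was also lower, by 1.64 untreated and 1.59 with H2O2.

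LINC01215 (chromosome 3, 108125821 to 108138610, plus strand) responded in opposite directions. In WT cells it was at 0.266, 0.545 and 0.261 FPKM untreated and 2.05, 1.98 and 2.06 with H2O2. In ATG7 KO cells it was at 1.85, 1.78 and 1.67 untreated and 0.586, 0.564 and 0.823 with H2O2. The high libraries were the treated WT and the untreated ATG7 KO libraries, and they did not overlap the low ones. It rose by 2.48 ± 0.26 in WT cells (adjusted p = 6.88e-12) and fell by 1.42 ± 0.20 in ATG7 KO cells (adjusted p = 0.0016). The responses differed by -3.91 ± 0.34 (interaction, adjusted p = 2.29e-05, at most 0.000189 with any library left out). In untreated cells the line difference of 2.28 (adjusted p = 0.00319) had an adjusted p above 0.01 without WT untreated replicate 1 or 3 or ATG7 KO untreated replicate 2 or 3 (highest adjusted p = 0.0224). Its reads per library averaged 53.2.

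LINC01173 (chromosome 2, 234682668 to 234717764, plus strand) rose in both lines. In WT cells it was at 0.347, 0.164 and 0.170 FPKM untreated and 4.45, 2.16 and 2.99 with H2O2. The ATG7 KO libraries were at 0, 0.848 and 0 untreated and 14.6, 11.8 and 10.1 with H2O2. Treated ATG7 KO libraries were above all others. The log2 fold changes were 3.71 ± 0.62 (adjusted p = 8.43e-07) and 5.30 ± 0.68 (adjusted p = 0.00105), and the difference of 1.60 between them had an adjusted p of 0.378. With H2O2 it was 1.90 ± 0.27 higher in ATG7 KO cells (adjusted p = 2.15e-07). The promoters of LINC01173 and LINC01215, examples picked for display, both held the AP-1 word TGANTCA, which binds Fos and Jun proteins. They are printed as 300 bases, from 250 before to 50 after the start in RefSeq (GRCh38.p14), with the word in capitals.

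LINC01173, chr2:234682418-234682717, plus strand: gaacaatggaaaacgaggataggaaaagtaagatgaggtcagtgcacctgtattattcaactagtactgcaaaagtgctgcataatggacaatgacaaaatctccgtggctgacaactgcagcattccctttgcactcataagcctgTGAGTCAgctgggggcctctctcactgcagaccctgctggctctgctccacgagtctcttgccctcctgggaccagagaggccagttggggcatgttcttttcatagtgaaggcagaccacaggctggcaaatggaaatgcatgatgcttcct
LINC01215, chr3:108125571-108125870, plus strand: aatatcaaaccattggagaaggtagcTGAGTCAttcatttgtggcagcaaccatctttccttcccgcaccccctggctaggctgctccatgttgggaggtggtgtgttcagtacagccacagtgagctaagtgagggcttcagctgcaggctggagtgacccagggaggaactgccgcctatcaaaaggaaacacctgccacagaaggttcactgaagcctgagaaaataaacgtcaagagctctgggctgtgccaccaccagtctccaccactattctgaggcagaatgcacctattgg

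The word starts 103 bases before the LINC01173 start and 224 bases before the LINC01215 start. RefSeq windows matched 101 of the lincRNAs, 73 of them within 200 bases of the start in the deposited table. On either strand, TGANTCA occurred in 10 of the 73 (13.7%) and in 7.72% of 34943 windows of the same length. The antioxidant response word TGACNNNGC, bound by NRF2, occurred in 16 (21.9%) against 13.3%. The cyclic AMP response word TGACGTCA occurred in 2 (2.74%) against 1.84%. Among the lincRNAs called higher with H2O2, TGANTCA was in 4 of 14 windows in WT cells and 3 of 9 in ATG7 KO cells, TGACNNNGC in 2 of 14 and 3 of 9, and TGACGTCA in 0 of 14 and 0 of 9. These matches are descriptions of letters and not of binding.

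SMILR (chromosome 8, 122414332 to 122428551, minus strand), first described in smooth muscle, had 3 reads in untreated and 69 reads in treated ATG7 KO cells, a ratio of 22.9 (counting interval 7.53 to 114). In WT cells it was at 0.208, 0.295 and 0.305 FPKM untreated and 0.533, 0.352 and 0.736 with H2O2. SMILR was included through treated ATG7 KO cells alone, so its high level there follows in part from the inclusion rule. AL139158.2, which spans the hairpin of miR-3659, rose in WT cells by 5.01 ± 0.48 on the log2 scale (adjusted p = 7.22e-13), and in ATG7 KO cells went from 2 to 61 reads, a ratio of 30.4 (8.07 to 257). These intervals cover counting error only.

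A set of scarce lincRNAs stood out in WT cells with H2O2. The inclusion rule admitted 67 lincRNAs through that group alone, so finding scarce lincRNAs high there follows in part from the rule. The same limit holds for their differences from ATG7 KO cells with H2O2. C2orf48 had 30 reads in untreated WT cells, 143 in WT cells with H2O2, 17 in untreated ATG7 KO cells and 8 in ATG7 KO cells with H2O2, summed over 3 libraries. LINC00565 had 16, 195, 24 and 40 reads in the same order. EGOT had 1, 85, 1 and 5, and AC108134.3 had 0, 132, 0 and 5. The treated WT libraries of these 4 lincRNAs overlapped no other library. AC108134.3 was at least 45.6-fold higher with H2O2 in WT cells, taking 3 reads over the untreated group as the limit that a count of 0 allows, and EGOT had a ratio of 88.1 (15.4 to 3520). AL078604.2 went from 1 to 152 reads, a ratio of 158 (27.9 to 6260), with 30 and 19 reads in ATG7 KO cells.

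With H2O2 these RNAs were lower in ATG7 KO than in WT cells, by 4.67 ± 0.47 for AC108134.3 (log2; adjusted p = 3.57e-10), 4.15 ± 0.45 for C2orf48 (adjusted p = 1.95e-09), 4.03 ± 0.51 for EGOT (adjusted p = 3e-08) and 2.32 ± 0.28 for LINC00565 (adjusted p = 1.52e-08). Each was included through treated WT cells alone, so these p-values draw on the values that admitted it. EGOT lies on the opposite strand within ITPR1, a calcium channel gene, AC108134.3 lies opposite IL32, a cytokine gene, and C2orf48 overlaps other genes on both strands. The library kit does not mark strand, so reads of such pairs cannot be told apart. IL32 itself had group means of 18.5 to 28.6 FPKM and changed by 0.19 with H2O2 in WT cells (adjusted p = 0.00436). The group means of ITPR1 were at most 0.24 FPKM.

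**Figure D5:**
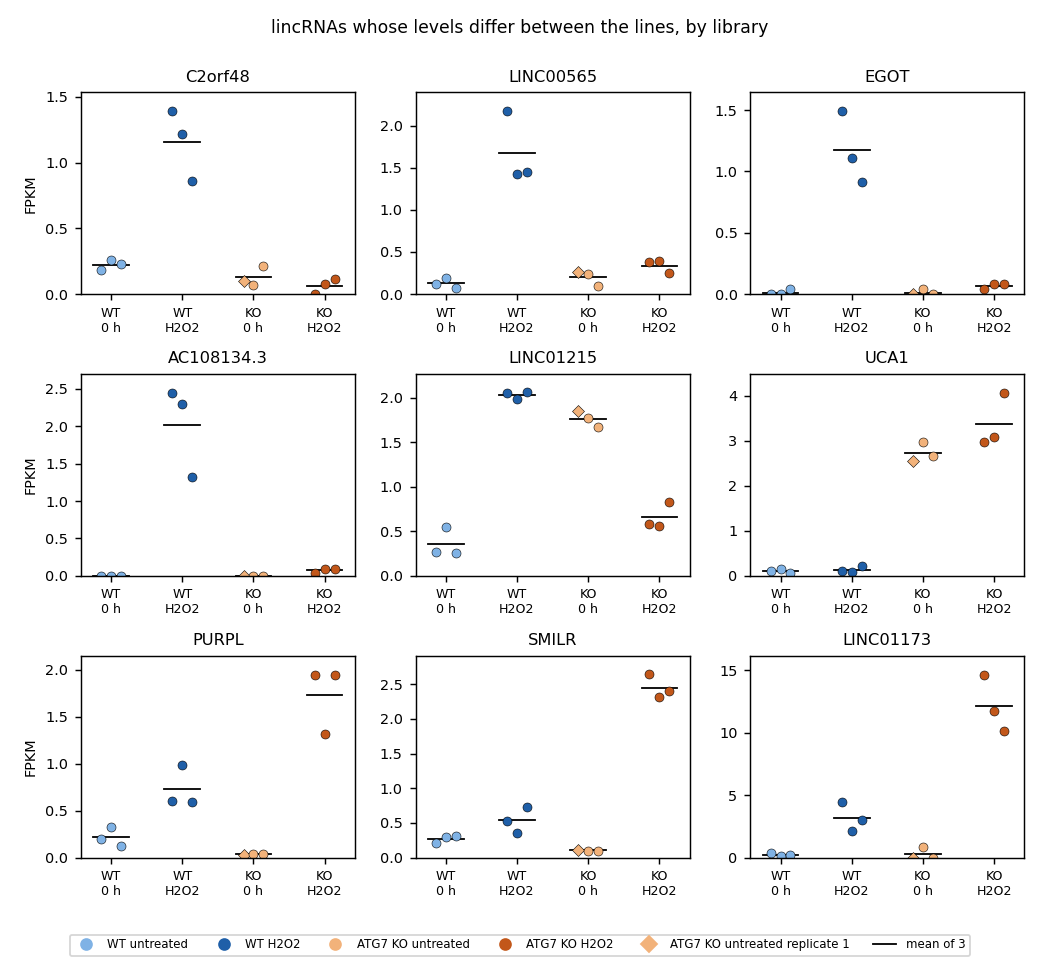
FPKM of 9 lincRNAs in each library, with 1 panel per gene, bars at the group means of 3, and a diamond for ATG7 KO untreated replicate 1. C2orf48, LINC00565, EGOT and AC108134.3 are high in the 3 WT libraries with H2O2, UCA1 is high in the 6 ATG7 KO libraries, PURPL, SMILR and LINC01173 are highest in ATG7 KO cells with H2O2, and LINC01215 is high in treated WT and untreated ATG7 KO cells.

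The test of unequal H2O2 response (interaction, adjusted p under 0.01) called 60 lincRNAs, 17 with a higher and 43 with a lower response in ATG7 KO cells, of 420 tested, where 14% of all genes tested were called, 7.02% with a higher and 7.01% with a lower response. Of the 420 tested, 14.3% were called, beside 16.4% of genes tested with a mean above 1 FPKM in at least 1 group. Among the 174 lincRNAs above 1 FPKM in all 4 groups, 26 were called, 11 with a higher and 15 with a lower response. That was 14.9%, beside 16.8% of all genes so defined (9.1% with a higher and 7.71% with a lower response). Over all the lincRNAs, a correction for gene length gave 20 with a higher and 31 with a lower response. Without ATG7 KO untreated replicate 1 the count was 99 (29 and 70), and 57 of the 60 were among them. Without any 1 of ATG7 KO H2O2 replicates 1 to 3, WT untreated replicates 1 to 3, and WT H2O2 replicates 1 and 2, it was between 30 and 36.

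LINC00941 (chromosome 12, 30795458 to 30879268, plus strand), on the growth-linked list, was at 0.476, 0.466 and 0.503 FPKM in untreated WT cells and 1.37, 1.39 and 1.21 with H2O2. Libraries of ATG7 KO cells stood at 0.337, 0.487 and 0.580 untreated and 0.553, 0.380 and 0.570 with H2O2. The treated WT libraries stood above the rest. LINC00941 was included through that group alone, so this and the differences below follow in part from the inclusion rule. It rose by 1.45 ± 0.10 in WT cells (adjusted p = 2.14e-17), was lower by 1.40 ± 0.11 in ATG7 KO than in WT cells with H2O2 (adjusted p = 7.47e-12), and had an interaction of -1.36 ± 0.26 (adjusted p = 0.00267). CRNDE, of the same list, was lower in ATG7 KO cells with H2O2 by 0.95 (adjusted p = 8.49e-07). Of the 16 tested genes of that list, 4 passed upward and 8 downward between the lines with H2O2 at an adjusted p of 0.01, a mixed set, where 27.7% and 27.9% of all genes did.

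LincRNAs are defined by distance from coding genes, yet 222 of the 473 overlapped another annotated gene, 116 on the same strand and 162 on the opposite strand, and 99 overlapped a coding gene. The median distance to the nearest coding gene was 2755 bases, and 88 had a coding gene starting head-to-head within 1000 bases. Across lincRNAs tested together with their nearest coding gene, the log2 fold changes with H2O2 had a Pearson r of 0.264 in WT (n = 325) and 0.252 in ATG7 KO cells (n = 308). For head-to-head pairs it was 0.326 (n = 72) and 0.552 (n = 75), while 31 of the 72 and 41 of the 75 pairs had changes of the same sign. For the interaction the head-to-head r was 0.063 (n = 78, 41 of the same sign). The pairs share libraries and, without strand, may share reads.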

How the data were processed

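Total RNA of 12 HLE-B3 libraries (NEBNext Ultra RNA kit) was sequenced. The deposited count table holds whole read counts per Ensembl gene made by the authors, whose processing notes name HISAT2 2.0.5 and featureCounts 1.5.0-p3 on GRCh38; strand and multi-mapping settings were not given in the sources used here. The deposited FPKM table scales the same reads by gene length and depth, per the authors. The gene length column in bases was used as deposited. FPKM served for levels and membership only.

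From the counts, edgeR 4.0.16 (R 4.3.3) fitted robust quasi-likelihood models with TMM normalization to all genes with enough reads (minimum count 10). Each comparison used its own 6 libraries and the interaction all 12, with Benjamini-Hochberg adjustment over all genes tested. A call needed an adjusted p under 0.01, a log2 fold change beyond 1 and a mean above 1 FPKM in 1 of the groups compared, as in the study; the interaction needed the adjusted p only. All p-values in the text are of this kind unless an exact permutation test is named. The fits were tested on simulated counts. Alternatives were DESeq2 1.42.0, RLE size factors, other filters on low counts, all 12 libraries in a fit, a lowess correction for gene length (span 0.3), a replicate block and each library left out in turn.

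Named genes were the 6 highest and 6 lowest called lincRNAs of each comparison, the 10 most abundant, and those on lists of known roles; others are marked in the text. Members and lists were chosen with earlier results of these data known. The study's methods call the replicates biological, and the labels only number them, so p-values measure the spread between these samples. The 1 Y-linked lincRNA is counted but not plotted. Intervals and limits cover counting error only, at the 95% level. A gene on 1 of the lists is not reported here.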

Additional observations from a re-analysis of the deposited data

Results flagged for a closer look

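The response to H2O2 differed between WT and ATG7 KO cells (edgeR interaction, adjusted p under 0.01) for 24 of the named lincRNAs. Some of the 24 were named because their interaction values were the highest or lowest among the lincRNAs called. The count of 24 therefore follows in part from the naming. Of the 420 lincRNAs tested, 14.3% were called, beside 14% of all genes tested. Among the 24, the log2 difference of the ATG7 KO response from the WT response was positive for 9 and negative for 15. The difference was positive for PURPL (3.78), SMILR (3.43), CYP4F26P (2.19), AL627171.2 (2.04), AC011815.1 (1.68), AC092807.3 (1.59), NEAT1 (1.22), MALAT1 (1.09) and AC117402.1 (1.09). It was negative for AL078604.2 (-7.48), AL356414.1 (-5.26), LINC01215 (-3.91), AC107982.3 (-3.29), LINC00565 (-2.91), AL354694.1 (-2.88), AC090023.2 (-2.10), AC099552.1 (-1.62), EPB41L4A-AS1 (-1.42), LINC00941 (-1.36), CRNDE (-1.16), LINC01111 (-1.0), MIR3142HG (-0.90), MIR22HG (-0.72) and LINC01605 (-0.66). MIR3142HG was chosen after its values were seen. AL078604.2 and AL356414.1 had 1 and 2 reads in all in untreated WT cells, and SMILR had 3 in untreated ATG7 KO cells, so their fitted values depend on the prior count.

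The adjusted p stayed under 0.01 with any 1 library left out for 10 of the 24. These were PURPL, CYP4F26P, AC011815.1, AC117402.1, NEAT1, AL078604.2, LINC01215, AC090023.2, LINC00941 and MIR3142HG. The other 14 rose above 0.01 with at least 1 library left out, with highest adjusted p values from 0.0112 for MIR22HG to 0.0261 for LINC01605. Without ATG7 KO untreated replicate 1, the library that stood apart, 2 of the 24 were lost, SMILR (adjusted p = 0.0125) and MALAT1 (adjusted p = 0.0178). A correction for gene length ended the calls of NEAT1 (adjusted p = 0.183), LINC01605 (0.134), LINC01111 (0.0327), AC107982.3 (0.0107) and AL354694.1 (0.0107). SMILR was also above 0.01 in DESeq2 (adjusted p = 0.0106). SMILR (adjusted p = 0.0177), AC099552.1 (0.0118) and LINC01605 (0.0125) were above 0.01 when genes of low count were kept.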

How the results depend on the processing

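With each library left out in turn, the number of lincRNAs called ranged from 97 to 109 for ATG7 KO against WT with H2O2 (105 with all libraries), from 9 to 45 for ATG7 KO against WT untreated (28), from 110 to 118 for H2O2 in WT cells (114), from 27 to 93 for H2O2 in ATG7 KO cells (69) and from 30 to 99 for the interaction (60). The upper ends of the untreated, ATG7 KO and interaction ranges were reached without ATG7 KO untreated replicate 1. Untreated ATG7 KO against WT gave 9, 10 and 9 without WT untreated replicates 1, 2 and 3, and 16 without ATG7 KO untreated replicate 3. H2O2 in ATG7 KO cells gave 32, 27 and 32 without ATG7 KO H2O2 replicates 1, 2 and 3, and 45 without either ATG7 KO untreated replicate 2 or 3. The interaction gave 30 to 36 without any of the 3 ATG7 KO H2O2 libraries, the 3 untreated WT libraries, or WT H2O2 replicate 1 or 2. These fits hold fewer samples.

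A filter of 10 reads in every library, which tests fewer genes, left 64 calls for ATG7 KO against WT with H2O2 and 61 for H2O2 in WT cells. Membership above 1 FPKM in all 4 groups left 27, 11, 37 and 19 calls in the 4 comparisons in the order above and 26 in the interaction, since fewer genes were counted, and a mean above 1 FPKM over 12 libraries left 64 for ATG7 KO against WT with H2O2. Fitting all 12 libraries gave 43 calls for untreated ATG7 KO against WT; the cause was not tested. DESeq2 gave 93, 39, 103, 88 and 90, and no filter 115, 36, 131, 78 and 88, each within 1.5 times the edgeR count. A correction for gene length gave 93, 28, 109, 72 and 51. It moved the split between the lines with H2O2 from 37 higher and 68 lower to 41 and 52. For H2O2 in WT cells the split moved from 77 and 37 to 65 and 44, and in ATG7 KO cells from 36 and 33 to 42 and 30.

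The difference in the share of reads on lincRNAs was -0.0102, -0.0546, -0.0359 and 0.0086 percentage points in the 4 comparisons. It ranged from -0.0145 to -0.0067, -0.0648 to -0.0351, -0.046 to -0.0163 and 0.0027 to 0.0128 with each library left out. It turned for H2O2 in WT cells as a share of summed FPKM (0.0363) and for H2O2 in ATG7 KO cells without the member with most reads (-0.0073). No exact permutation test of 3 against 3 can go below 0.1.

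Same-numbered replicates deviated with correlations of -0.069 to 0.098, so the numbers were not taken to pair the samples. A replicate block gave 101, 19, 112, 50 and 47 calls; it took 12 of the values of named lincRNAs counted below above 0.01, and the LINC01111 interaction (adjusted p = 0.0117) besides. Among the 12 were MALAT1 with H2O2 in WT cells (adjusted p = 0.0143), NEAT1 in untreated ATG7 KO against WT (0.0183), LINC01605 with H2O2 in ATG7 KO cells (0.0267) and the interactions of AL627171.2 (0.012), AC107982.3 (0.0117), AL354694.1 (0.0129) and LINC01605 (0.0138).

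Of 829 values of named lincRNAs under the 7 settings other than leaving out a library (DESeq2, RLE size factors, both filters, all 12 libraries, gene length and the block), 769 kept their direction and side of the threshold, 45 lost it, 13 gained it and 2 turned. Both turned values were of NORAD, for ATG7 KO against WT with H2O2 without a filter (log2 0.02, adjusted p = 0.669) and untreated with the gene length correction (log2 0.02, adjusted p = 0.9). Depth limits lincRNAs with a group at 3 reads or fewer, whose fold is a ratio with a counting interval or a lower bound.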
